A study of Mus musculus with 6 samples.

Results

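The genes described here are 40 genes of the non-collagen extracellular matrix, chosen by name from a fixed list and found, all 40, among the 20066 genes of the deposited RNA-seq table. They fall by role into 7 matricellular and adhesive glycoproteins, 10 elastic fibre and microfibril proteins, 4 interstitial proteoglycans, 4 lysyl oxidases, 5 metalloproteinases and their inhibitors, and 10 laminin chains and basement membrane linkers. The choice used no measured value of a contrast, but it was made with earlier results of these data known.

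Neonatal cardiomyocytes (CMs) of C57BL/6 mice, taken at P0-1 (the day of birth or the day after), were cultured with DMSO as the vehicle or with α-ketoglutarate (αKG) in a cell-permeable form, in each case for 96 h. αKG is a metabolite of the Krebs cycle and a cofactor of demethylases and of the prolyl and lysyl hydroxylases. Each group has 3 libraries of total RNA. The labels give a concentration of 100 µM, whereas the methods of the study give a different one for neonatal CMs, so the concentration is uncertain. The comparison asks how a raised αKG level changes the transcriptome of CMs that would otherwise mature. The study plated dissociated heart cells on fibronectin-coated plates, so the plates held fibronectin protein from the start, which the RNA values do not count. In the study a sample of neonatal CMs stands for 1 isolation from hearts pooled over pups, and replicates are described as separate experiments. The labels do not name the isolation of each library.

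The extracellular matrix of the heart has an interstitial part and a basement membrane. In the interstitium, fibronectin, fibrillin microfibrils, elastin and proteoglycans form fibres and hydrated gels around the cells, and lysyl oxidases crosslink elastin and collagen. Each CM, endothelial cell and mural cell rests on a basement membrane in which laminin trimers of an α, a β and a γ chain are joined to collagen IV by nidogens and the heparan sulfate proteoglycans perlecan and agrin. Cardiac fibroblasts are known as the main source of the interstitial matrix, whereas CMs themselves make laminins and other basement membrane components.

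Promoter sequences are shown for 3 of the genes past the threshold below, 1 adhesive glycoprotein, 1 interstitial proteoglycan and 1 basement membrane proteoglycan, since these have a RefSeq start within 34 bases of the deposited gene start. Each runs 5′ to 3′ on the strand of the gene, from 250 bases before the start to 50 bases after it, in build GRCm38.p6. Capitals mark a TATA box (TATAAA), a GC box (GGGCGG) or a CCAAT box (CCAAT), on either strand, and these 3 motifs do not overlap one another here. Thbs2, which encodes thrombospondin 2, lies on the reverse strand with its window at chr17:14694213-14694512. The window of Vcan, for the large proteoglycan versican, is chr13:89742463-89742762 on the reverse strand. The window of Hspg2, for perlecan, is chr4:137468553-137468852 on the forward strand.
Thbs2: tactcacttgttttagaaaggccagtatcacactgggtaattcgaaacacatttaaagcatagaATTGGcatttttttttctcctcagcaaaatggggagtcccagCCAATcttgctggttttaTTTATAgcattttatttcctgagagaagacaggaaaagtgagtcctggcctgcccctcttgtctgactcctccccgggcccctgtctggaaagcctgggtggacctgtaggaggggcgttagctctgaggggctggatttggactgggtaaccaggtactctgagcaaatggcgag
Vcan: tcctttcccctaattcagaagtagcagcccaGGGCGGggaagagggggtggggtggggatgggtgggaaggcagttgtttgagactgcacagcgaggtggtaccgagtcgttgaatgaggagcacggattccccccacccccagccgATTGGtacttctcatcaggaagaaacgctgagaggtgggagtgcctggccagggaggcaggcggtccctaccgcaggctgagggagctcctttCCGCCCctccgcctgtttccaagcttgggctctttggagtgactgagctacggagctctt
Hspg2: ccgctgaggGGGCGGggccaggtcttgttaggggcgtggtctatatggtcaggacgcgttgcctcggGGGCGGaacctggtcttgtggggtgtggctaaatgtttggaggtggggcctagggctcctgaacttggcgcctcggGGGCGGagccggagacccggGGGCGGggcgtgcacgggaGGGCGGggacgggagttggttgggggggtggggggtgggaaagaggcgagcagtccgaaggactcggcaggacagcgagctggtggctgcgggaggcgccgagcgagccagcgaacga

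The 3 windows differ in composition. The Thbs2 window has 48.3% GC, no GC box, 1 TATA box on the opposite strand whose first base in the printed direction lies 126 bases before the start, and 2 CCAAT boxes. The Vcan window has 61% GC, 2 GC boxes and 1 CCAAT box, and the Hspg2 window has 70.3% GC and 5 GC boxes. RefSeq entries were matched for 24 of the 40 genes. A GC box lies in at least 1 window of 18 of these 24 genes (75%), against 70.8% of the 9484 coding genes with a mean value of at least 10, counted alike. It lies in 35.9% of all 32544 distinct windows of the same length, which are counted singly and so are a different measure. The other motifs below were counted in the same 3 ways. A CCAAT box lies in 11 of 24 (45.8%), against 43.2% and 37.4%, and a TATA box in 4 of 24 (16.7%), against 8.59% and 13.6%. GGAATG, the core bound by TEAD factors, lies in 2 of 24 (8.33%), against 14.4% and 14.6%. TGANTCA, the AP-1 site, lies in 1 of 24 (4.17%), against 5.84% and 7.79%. These are letter matches only.

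The values are normalized read counts, reads per gene divided by a size factor of the library and rounded, with estimated totals of 3725428 to 4428655 reads per library. All 12 CM markers were present, the lowest at 677 in any library. αKG replicate 3 stood apart from the other 2 αKG libraries. Its log2 profile correlated with the DMSO libraries at 0.977 to 0.98, and with αKG replicates 1 and 2 at 0.962 and 0.963. Results are therefore given with and without it. DMSO replicates 2 and 3 differed by little more than sampling noise over the genes with a mean value of at least 10 (chi-square per gene 1.02). The chi-square per gene was 1.56 over the 40 genes, but 13.4 over 8 proliferation markers. DMSO replicates 2 and 3 were counted as separate samples.

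In αKG-treated CMs, 6 of the 40 matrix genes passed the threshold (limma, adjusted p under 0.05 over 20066 genes), and all 6 rose. They were Lama4, Lama2 and Hspg2 of the basement membrane, the versican gene Vcan, the thrombospondin gene Thbs2 and the fibrillin gene Fbn2. This is 15% of the 40, beside 3.78% of the genes of the table called in either direction, 2.83% called higher and 0.952% called lower. The mean was higher with αKG in 39 of the 40, the exception being the tenascin gene Tnc. The median log2 fold change of the 40 was 0.50, and that of the whole table was 0.04. At an unadjusted p under 0.05 stood 25 of the 40, beside 28.1% of the table.

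**Figure D1:**
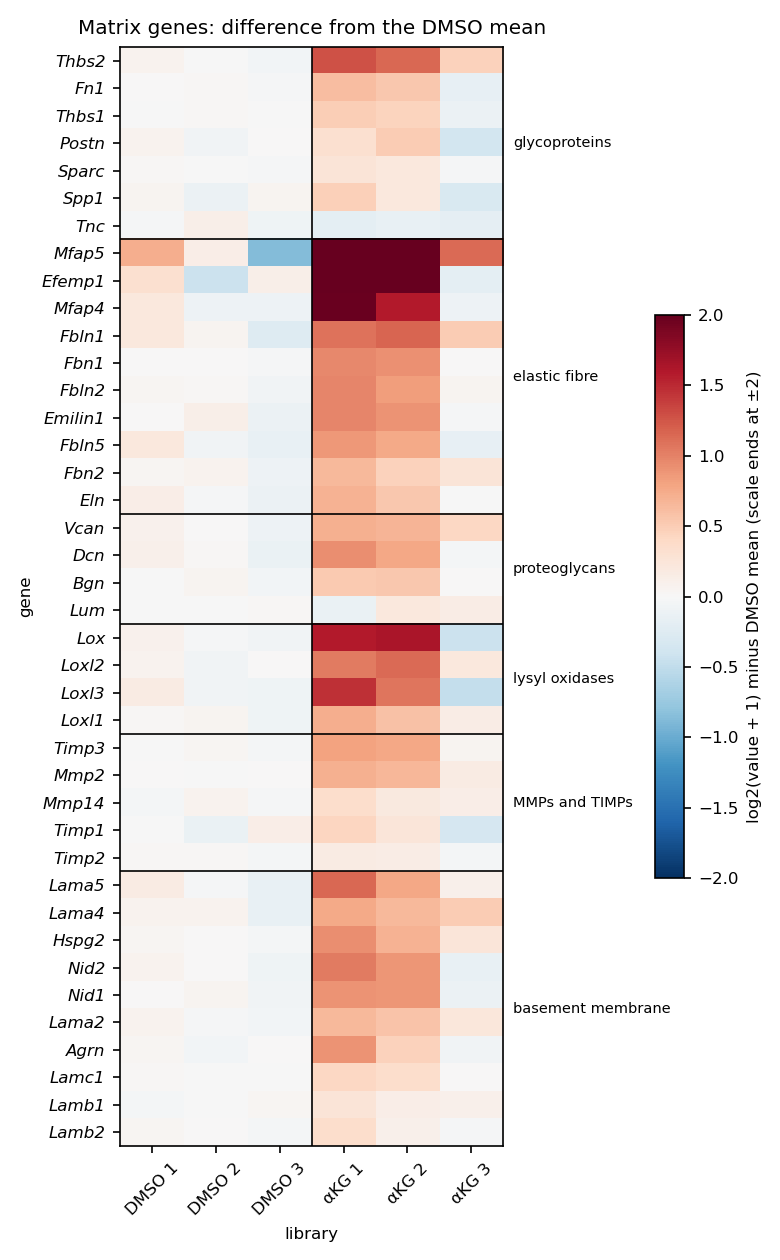
Each row is 1 of the 40 genes and each column 1 library, and the color gives the log2 difference of log2(value + 1) from the mean of the 3 DMSO libraries. αKG replicates 1 and 2 lie above every DMSO library in 38 of 40 genes, whereas αKG replicate 3 lies above them in 16, below them in 13 and within their range in 11.

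The difference lay in αKG replicates 1 and 2. The median difference of the 40 genes from the DMSO mean was 0.74 and 0.66 on the log2 scale in these libraries and 0.00 in αKG replicate 3, while the DMSO libraries lay at 0.04, 0.00 and -0.06. Summed over the 40 genes, the normalized read count was 29640, 29229 and 28081 in the DMSO libraries, and it was 46588, 43370 and 30100 with αKG. αKG replicates 1 and 2 were both above every DMSO library in 38 of the 40 genes, with Tnc and the lumican gene Lum as the exceptions, beside 30.4% of the table. The groups did not overlap, with αKG higher, in 15 of 40 genes (37.5%, beside 13.7% of the table), and with αKG lower in 1, Tnc, beside 14.6%. αKG replicate 3 alone was above every DMSO library in 16 of 40 and below each in 13, beside 27.3% and 27% of the table.

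Without αKG replicate 3, 36 of the 40 genes passed the threshold, each higher, beside 37.2% of the table called in either direction and 19.3% called higher, and the median log2 fold change was 0.70. The 4 that did not pass were Tnc, Lum, the osteopontin gene Spp1 and Timp1. Without αKG replicate 1 or without αKG replicate 2, none of the 40 and none of the 20066 genes passed, with 10 and 11 of the 40 at an unadjusted p under 0.05, beside 16.6% and 16.2% of the table. Without DMSO replicate 2 or without DMSO replicate 3, none of the 40 passed by limma either, beside 0.015% and 0.0199% of the table. In these fits 14 and 13 of the 40 were at an unadjusted p under 0.05, beside 17.8% and 16% of the table. Without DMSO replicate 1 Lama4 was the 1 that passed, beside 0.758% of the table. Of all calls, 74.8% were higher with αKG, and 66.3% with libraries scaled to the same total, 69.3% with quantile normalization and 34.7% after a correction for GC content and exon length. Under that correction 8 of the 40 were called, all higher, beside 6.94% of the table in either direction and 2.41% higher. Relative to the median of the table, the median of the 40 was 0.47 higher in the uncorrected values and 0.45 higher in the corrected ones.

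The basement membrane genes held 3 of the 6 calls, and each of the 10 genes in the group had a higher mean with αKG. Lama4 (ENSMUSG00000019846, chr10:38965515-39110188 on the forward strand of GRCm38, as for the genes below) encodes a laminin α chain of vessel, muscle and fat basement membranes. Its normalized read count was 945, 947 and 808 in the DMSO libraries and 1514, 1415 and 1283 in the αKG libraries. The lowest αKG library lay well above the highest DMSO library, αKG replicate 3 included. Lama4 rose by 0.64 ± 0.09 on the log2 scale (SE, n = 3 per group, adjusted p = 0.00939), and by 0.70 ± 0.08 without αKG replicate 3. It had the smallest adjusted p of the 40 genes, and over 17 alternatives its log2 fold change ranged from 0.47 to 0.70. The call of Lama4 was lost in 6 of the 17, where its adjusted p by limma ran up to 0.255.

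Lama2 (ENSMUSG00000019899, chr10:26980036-27619758 on the reverse strand) encodes the α chain of the laminin that surrounds striated muscle fibres, and its loss causes a congenital muscular dystrophy. Its values were 1186, 1110 and 1078 with DMSO and 1764, 1677 and 1311 with αKG, so that the groups did not overlap and αKG replicate 3 was the lowest of its group. Lama2 rose by 0.48 ± 0.10 (log2, SE, n = 3, adjusted p = 0.0422). This call was also lost under the correction for GC content and exon length, where its log2 fold change was the lowest of its alternatives at 0.25. Hspg2 (ENSMUSG00000028763, chr4:137468769-137570630 on the forward strand), whose product perlecan binds laminin, nidogen and growth factors, was at 2574, 2500 and 2420 with DMSO and at 4766, 4058 and 2955 with αKG. The αKG libraries were all higher, but they spread over a range wider than the gap to DMSO. Hspg2 rose by 0.63 ± 0.14 (log2, SE, n = 3, adjusted p = 0.0445), and by 0.82 ± 0.07 without αKG replicate 3. Its call was lost in 10 of the 17 alternatives.

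The remaining 7 basement membrane genes did not pass. Lamc1, the γ chain shared by most laminins, was the most abundant of the group per length, at 256 normalized read counts per kb of exon over all libraries. Its values were 1945, 1903 and 1905 with DMSO and 2548, 2454 and 1928 with αKG, with αKG replicate 3 inside the DMSO range, and its log2 fold change was 0.26 ± 0.09 (SE, n = 3, adjusted p = 0.121). The β chain gene Lamb1 had groups that did not overlap, at 1072 to 1135 with DMSO and 1181 to 1315 with αKG, but a log2 fold change of 0.16 that did not pass. Lamb2, the β chain of mature muscle laminins, had one of 0.14. Lama5, the widespread embryonic and epithelial α chain, was at 0.67 ± 0.22 (adjusted p = 0.0926), with αKG replicate 3 within the DMSO range. For the linkers, the log2 fold change was 0.56 for Nid1 and 0.59 for Nid2, the nidogens that connect laminin with collagen IV, and 0.43 for Agrn, which encodes agrin, a ligand of dystroglycan. In these 3 genes αKG replicate 3 lay below every DMSO library.

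**Figure D2:**
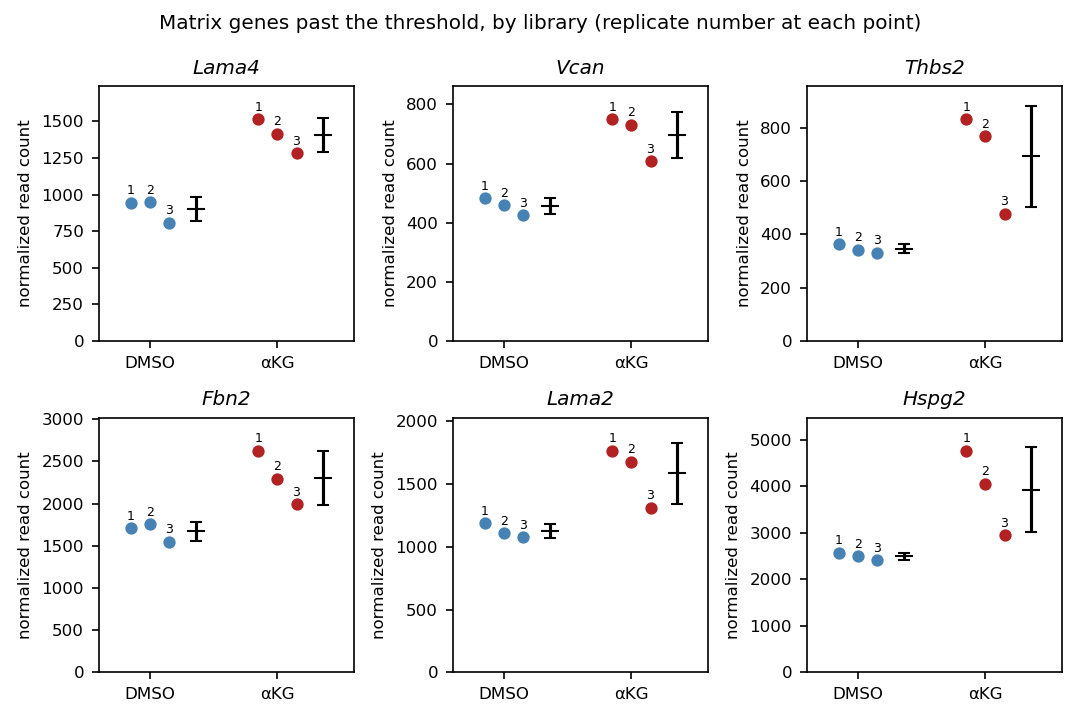
Normalized read counts (vertical axes, from 0) of the 6 genes past the threshold, with DMSO libraries in blue and αKG libraries in red. Points carry replicate numbers, horizontal bars give the mean and whiskers the SD (n = 3). In each panel the 3 αKG libraries lie above the 3 DMSO libraries, and αKG replicate 3 is the lowest of its group.

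Set against one another per kb of exon, the laminin α chains made up a larger part with αKG. The summed level of the α chains Lama2, Lama4 and Lama5 divided by that of Lamc1 was 0.856, 0.828 and 0.754 in the DMSO libraries and 1.08, 1.00 and 1.01 in the αKG libraries. Every αKG library, replicate 3 included, was above every DMSO library in this ratio, at a mean of 1.03 ± 0.0453 against 0.813 ± 0.0528 (SD, n = 3). The ratio of the β chains to Lamc1 overlapped between groups, at 1.49 to 1.51 with DMSO and 1.27 to 1.5 with αKG. These ratios were chosen after the values were seen and carry no test. Being formed within a library, they do not depend on a factor that scales a whole library. They were not formed from the values corrected for GC content and exon length. Under that correction the log2 fold change was 0.25 for Lama2, 0.47 for Lama4 and 0.56 for Lama5, against 0.16 for Lamc1. Uncorrected, these were 0.48, 0.64 and 0.67, against 0.26.

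**Figure D3:**
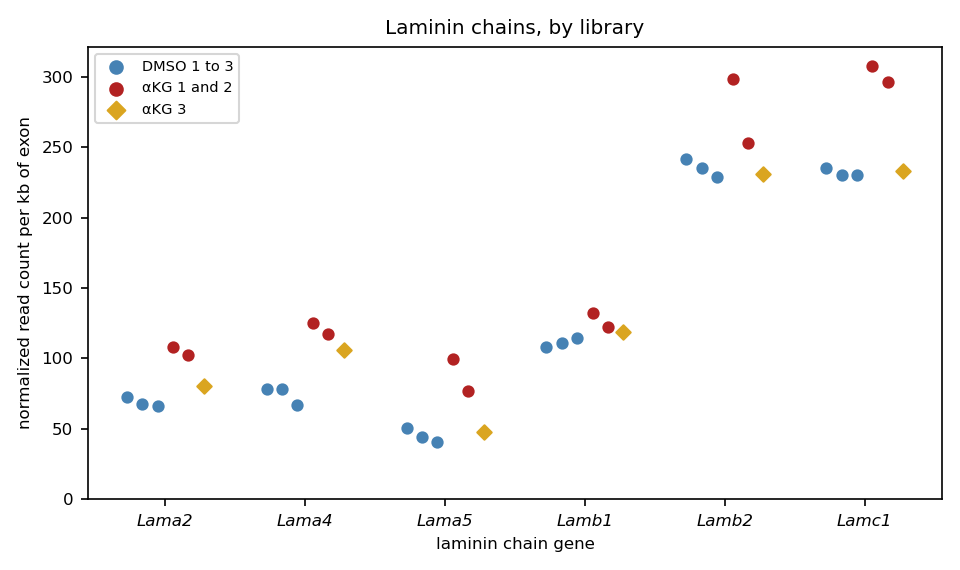
Levels of the laminin chain genes in normalized read counts per kb of exon, by library, with DMSO in blue, αKG replicates 1 and 2 in red and αKG replicate 3 as a yellow diamond. Lama4 and Lama2 have αKG libraries above every DMSO library, whereas Lamc1 and Lamb2 have αKG replicate 3 inside the DMSO range.

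Of the 10 elastic fibre and microfibril genes, 1 passed the threshold, although each of the 10 had a higher mean with αKG and the median log2 fold change was 0.63. Fbn2 (ENSMUSG00000024598, chr18:58008623-58210487 on the reverse strand) encodes fibrillin-2, the fibrillin of fetal and neonatal microfibrils. Its values were 1707, 1753 and 1549 with DMSO and 2626, 2296 and 1994 with αKG, without overlap. Fbn2 rose by 0.46 ± 0.10 (log2, SE, n = 3, adjusted p = 0.0385). Fbn1, for the fibrillin that predominates later, had a larger log2 fold change of 0.63 ± 0.21 that did not pass (adjusted p = 0.0965). In Fbn1 αKG replicate 3, at 1122, was inside the DMSO range of 1098 to 1124, while αKG replicates 1 and 2 were at 2169 and 2098.

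The fibulin genes, whose products bind elastin and microfibrils, did not pass, with Fbln1 the closest to the threshold. Fbln1 was at 56, 50 and 40 with DMSO and at 103, 109 and 69 with αKG, a log2 fold change of 0.92 ± 0.22 without overlap (SE, n = 3, adjusted p = 0.0506). Fbln2, the most abundant gene of this group per length at 198 normalized read counts per kb, was at 999, 987 and 929 with DMSO and at 1913, 1740 and 1013 with αKG. Here αKG replicate 3 exceeded the highest DMSO library only slightly, and the log2 fold change was 0.63 ± 0.19 (adjusted p = 0.0852). Efemp1, another fibulin family gene, which is named here after its values were seen, was at 36, 21 and 31 with DMSO and at 212, 187 and 25 with αKG. Its log2 fold change was 1.77 ± 0.67 with all libraries (adjusted p = 0.128) and 2.76 ± 0.23 without αKG replicate 3. Elastin itself (Eln) had a log2 fold change of 0.41, the elastogenesis gene Fbln5 one of 0.49 and Emilin1, for an elastin microfibril interface protein, one of 0.62. None of these 3 passed. The microfibril-associated genes Mfap4 and Mfap5 were at 16 or fewer normalized reads in every library. Mfap5 was at 2, 1 and 0 with DMSO and at 13, 7 and 3 with αKG, too few for the log2 fold change of 2.07 ± 0.61 to be read as a size (adjusted p = 0.0792).

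Among the 7 matricellular and adhesive glycoproteins, 1 passed, and the group had the lowest median log2 fold change of the 6 groups, 0.15. Thbs2 (ENSMUSG00000023885, chr17:14665500-14694235 on the reverse strand) encodes thrombospondin 2, a matricellular inhibitor of angiogenesis. Its values were 364, 342 and 331 with DMSO and 832, 768 and 477 with αKG, so that αKG replicate 3 lay between the DMSO libraries and the other αKG libraries. Thbs2 rose by 0.96 ± 0.18 (log2, SE, n = 3, adjusted p = 0.0294), the largest log2 fold change among the 6 genes that passed. Without αKG replicate 3 the rise was 1.21 ± 0.06. The call of Thbs2 was lost in 9 of the 17 alternatives.

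The other 6 glycoproteins did not pass, and in each of them αKG replicate 3 was below every DMSO library. Thbs1, encoding the related thrombospondin 1, was the most abundant of the 40 genes per length, at 445 normalized read counts per kb. It was at 2398, 2447 and 2416 with DMSO and at 3406, 3312 and 2225 with αKG, a log2 fold change of 0.27 ± 0.14 (SE, n = 3, adjusted p = 0.217). Fibronectin mRNA (Fn1) had the same form, with DMSO libraries at 2499 to 2576, αKG replicates 1 and 2 at 3898 and 3704, and αKG replicate 3 at 2276. Its log2 fold change was 0.33 ± 0.17 (adjusted p = 0.22). Postn, for periostin of activated fibroblasts, and Sparc, for a collagen-binding glycoprotein, each had a log2 fold change of 0.15, and Spp1, at 11 or fewer normalized reads, one of 0.12. Tnc, for tenascin-C, a glycoprotein of developing and injured tissue, went the other way. It is named here after its values were seen, and was at 273, 301 and 262 with DMSO and at 243, 251 and 246 with αKG, a log2 fold change of -0.17 ± 0.09 (adjusted p = 0.25).

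Of the 4 interstitial proteoglycans, 1 passed. Vcan (ENSMUSG00000021614, chr13:89655312-89742509 on the reverse strand) encodes versican, a large hyaluronan-binding proteoglycan of the developing heart. Its values were 482, 460 and 426 with DMSO and 750, 732 and 609 with αKG, and αKG replicate 3 lay between the DMSO libraries and the other αKG libraries. Vcan rose by 0.61 ± 0.10 (log2, SE, n = 3, adjusted p = 0.0193), and by 0.70 ± 0.06 without αKG replicate 3. Its call was lost in 8 of the 17 alternatives. The small leucine-rich proteoglycans, which bind collagen fibrils, did not pass. Bgn, for biglycan, was the most abundant of the 4 per length, at 142 normalized read counts per kb, and stood at 751, 780 and 725 with DMSO and at 1084, 1090 and 757 with αKG (log2 fold change 0.36 ± 0.13, adjusted p = 0.115). Dcn, for decorin, had a log2 fold change of 0.55 with αKG replicate 3 inside the DMSO range. Lum, for lumican, had one of 0.08, and was at 133 to 137 with DMSO and 123 to 156 with αKG.

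None of the 4 lysyl oxidase genes passed by limma, although the group had the highest median log2 fold change, 0.74. Of the 4, 2 were at an unadjusted p under 0.05, beside 28.1% of the table. The αKG libraries were far apart in these genes, with group medians of 1.25, 1.10 and -0.14 above the DMSO mean in αKG replicates 1, 2 and 3. Lox, for the lysyl oxidase that crosslinks collagen and elastin, was at 364, 339 and 329 with DMSO and at 1038, 1072 and 255 with αKG. αKG replicates 1 and 2 were thus well above DMSO and αKG replicate 3 below it, and the log2 fold change was 0.93 ± 0.44 (SE, n = 3, adjusted p = 0.201). Without αKG replicate 3 it was 1.62 ± 0.06 (adjusted p = 0.000106), and over the 17 alternatives the adjusted p ran up to 0.607. Lox is the most abundant of the 4 per length, at 118 normalized read counts per kb. Loxl2 was at 430, 389 and 411 with DMSO and at 845, 898 and 473 with αKG, higher in every library, with a log2 fold change of 0.79 ± 0.20 (adjusted p = 0.0586). Loxl1, needed for elastic fibre upkeep, had groups that did not overlap and a log2 fold change of 0.49 ± 0.15 (adjusted p = 0.0814). In Loxl3, at 0.69 ± 0.40, αKG replicate 3 was below DMSO.

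None of the 5 metalloproteinase and inhibitor genes passed by limma, with 3 of 5 at an unadjusted p under 0.05, beside 28.1% of the table. Mmp2, for a gelatinase, was at 375, 371 and 375 with DMSO and at 613, 595 and 418 with αKG, without overlap (log2 fold change 0.51 ± 0.13, SE, n = 3, adjusted p = 0.0609). Its membrane-bound activator Mmp14 was at 477 to 517 with DMSO and 538 to 626 with αKG, also without overlap, at a log2 fold change of 0.22. Timp3, for the inhibitor that binds to the matrix, was at 1092, 1137 and 1075 with DMSO and at 1917, 1882 and 1140 with αKG. αKG replicate 3 exceeded the highest DMSO library by only a few reads, and the log2 fold change was 0.54 ± 0.17 (adjusted p = 0.0862). Of Timp3, 21.3% of the exon bases lie in exons of Syn3 on the opposite strand, and the strand setting of the counting is not stated. Timp2, the most abundant of the 5 per length at 255 normalized read counts per kb, was at 975, 973 and 933 with DMSO and at 1080, 1065 and 936 with αKG, a log2 fold change of 0.09 ± 0.07 (adjusted p = 0.41). Timp1 had one of 0.11.

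**Figure D4:**
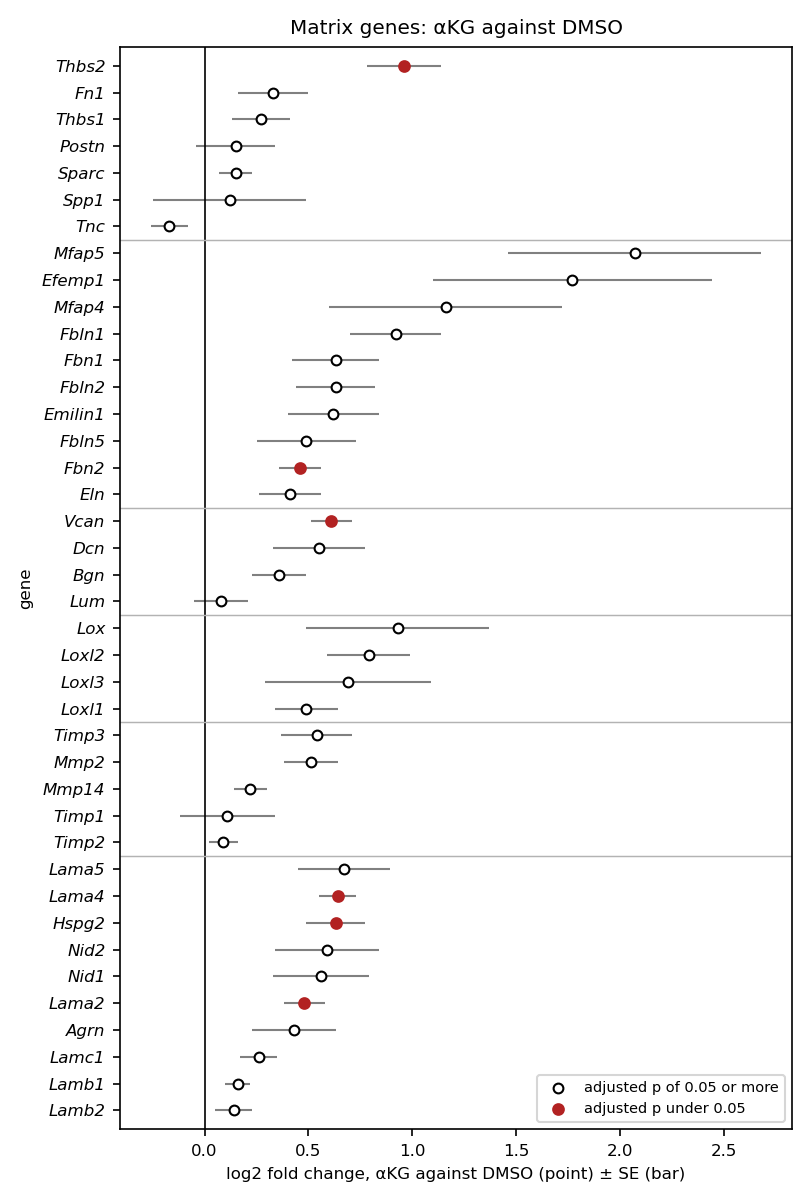
Log2 fold change of each of the 40 genes, αKG against DMSO, grouped by role, with whiskers of 1 SE from the fit. Filled red points are the 6 genes with an adjusted p under 0.05 and open points the others. The point of Tnc lies below 0, those of the other 39 above.

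The other matrix and adhesion genes of the table gave a background for the 40. Of 29 listed genes for other matrix glycoproteins and proteoglycans, 3 passed, each higher (10.3%, with a median log2 fold change of 0.56 over the list). They were Ccn2, for connective tissue growth factor (0.57 ± 0.13, adjusted p = 0.0454), Ltbp3, for a latent TGF-β binding protein (0.56 ± 0.13, adjusted p = 0.0468), and Matn2, for matrilin-2 (1.01 ± 0.24, adjusted p = 0.0495). The list of 13 other laminin chain and basement membrane genes had a median of 0.16. Of 12 fibrillar and associated collagens, 2 passed, Col12a1 (1.66 ± 0.33, adjusted p = 0.035) and Col6a3 (0.88 ± 0.19, adjusted p = 0.0424), at a list median of 0.81. Of 16 listed genes for other proteases, crosslinking enzymes and inhibitors, 2 passed, the membrane-bound Mmp16 (1.24 ± 0.26, adjusted p = 0.0415) and Mmp23 (0.84 ± 0.20, adjusted p = 0.0478), at a list median of 0.30.

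The receptors for this matrix had the most calls of the 5 lists. Of 25 integrin and other receptor genes, 5 passed, each higher (20%, median log2 fold change 0.25). Itga9, for an integrin α chain that binds tenascin-C and osteopontin, had the smallest adjusted p of these lists (0.74 ± 0.08, adjusted p = 0.00624). It was at 705, 795 and 884 with DMSO and at 1311, 1278 and 1366 with αKG, so that αKG replicate 3 was the highest library. Itga5, for the α chain of the fibronectin receptor, rose by 0.51 ± 0.07 (adjusted p = 0.0136), Itga1, for that of a collagen and laminin receptor, by 0.69 ± 0.11 (adjusted p = 0.0204), and the syndecan gene Sdc1 by 0.84 ± 0.14 (adjusted p = 0.0223). The last of the 5 was Sdc3, another syndecan gene, named after its values were seen (0.40 ± 0.09, adjusted p = 0.0435). No gene of the 5 lists was called lower.

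**Figure D5:**
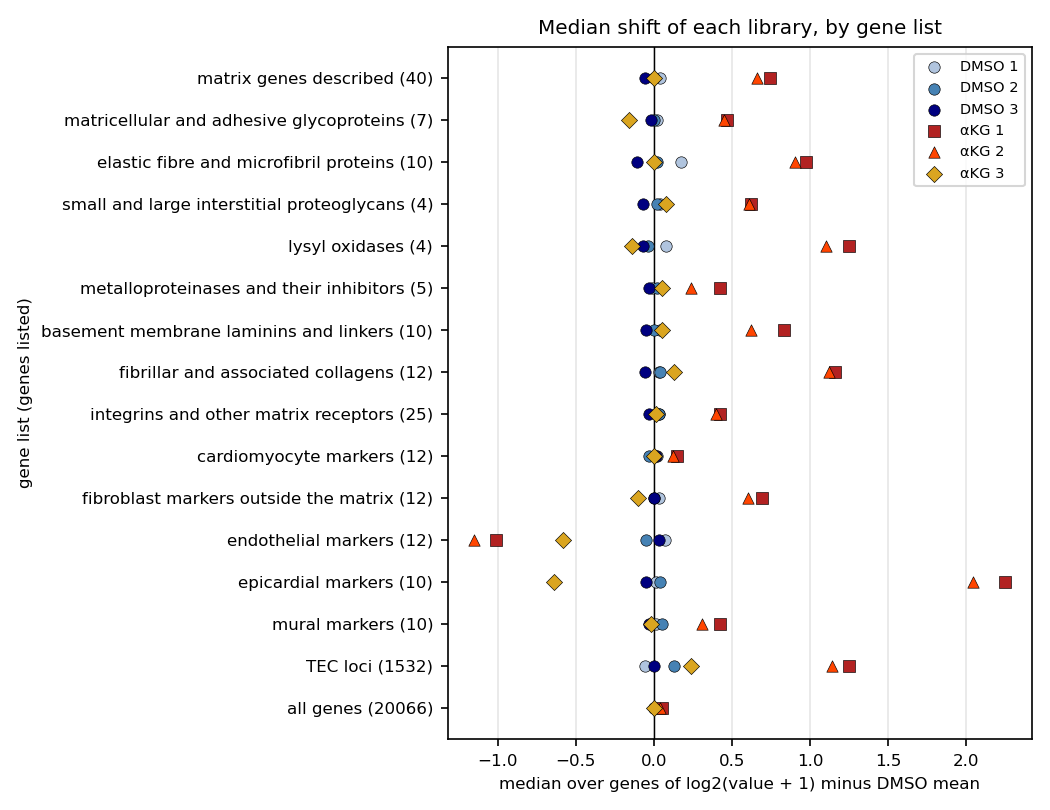
Median log2 difference from the DMSO mean (horizontal axis), per library, for the 40 genes, their 6 role groups, collagens, receptors, marker lists, TEC loci and all genes, with DMSO as blue circles, αKG replicate 1 as squares, 2 as triangles and 3 as diamonds. For the 40 genes αKG replicates 1 and 2 lie at 0.74 and 0.66 and αKG replicate 3 at 0.00. The epicardial list shows a wider spread, with αKG replicate 3 below DMSO, and the endothelial list lies below 0 in each αKG library.

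Markers of other cardiac cell types also differed between libraries. In bulk RNA, fewer cells of a type and less RNA per cell cannot be told apart. Of 12 fibroblast markers outside the matrix, none passed by limma (5 at an unadjusted p under 0.05, beside 28.1% of the table). Their median difference was 0.69, 0.60 and -0.10 in αKG replicates 1 to 3, and their summed level was 1818 to 1894 with DMSO and 1727 to 2997 with αKG. Of 10 epicardial markers, none passed by limma either (2 at an unadjusted p under 0.05, beside the same 28.1%). Their median differences were 2.25, 2.04 and -0.64, and their summed level was 492 to 516 with DMSO and 464 to 1318 with αKG. Both lists thus had αKG replicates 1 and 2 above DMSO and αKG replicate 3 below it, and their part in the values of the matrix genes was not tested.

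Of 12 endothelial markers, 8 were called lower, among them Pecam1, Cdh5 and Kdr, with a summed level of 2098 to 2238 with DMSO and 1441 to 1569 with αKG. In 3 of the 12 the mean was higher with αKG, none of them called, such as Flt1 with 485 to 510 with DMSO and 733, 719 and 411 with αKG. Of 10 mural markers, 2 were called higher (Cspg4 and Cnn1, named after their values were seen), and the summed level was 4306 to 4415 with DMSO and 4613 to 5027 with αKG. Cspg4 alone was at 801, 846 and 777 with DMSO and at 1576, 1282 and 1021 with αKG. The mean was lower with αKG in 3 of the 10, none of them called. Among these 3 was Abcc9, with 2114, 2020 and 2047 with DMSO and 1590, 1495 and 2060 with αKG. CM markers had none of 12 called by limma (4 at an unadjusted p under 0.05, beside 28.1% of the table). Their median log2 fold change was 0.08, and their summed level was 83059 to 85498 with DMSO and 87506 to 119753 with αKG. Most of this sum was Ttn, at 51569, 54216 and 53157 with DMSO and 80306, 84136 and 55569 with αKG. Of 10 macrophage markers 4 were listed, at a summed level of 22 to 41 in any library, and of 6 Schwann cell markers 5 were listed, at 170 to 200 with DMSO and 205 to 234 with αKG. No marker listed was at 0 in every library. Of 8 proliferation markers, 2 were called higher (Mki67 and Top2a), and the summed level was 2727 to 4979 with DMSO and 6247 to 6490 with αKG, αKG replicate 3 included. The groups did not overlap in 4 of the 8, with αKG higher, beside 13.7% of the table. The median difference of the 8 was 0.54, -0.13 and -0.43 in DMSO replicates 1 to 3. It was 0.61, 0.67 and 0.79 in αKG replicates 1 to 3, so DMSO replicate 1 lay close to the αKG libraries. The 1532 loci of the GENCODE class TEC, transcripts still awaiting experimental proof, had median differences of 1.25, 1.14 and 0.24 in αKG replicates 1 to 3. The part of each of these in the matrix result was not tested.

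The 40 genes differ from the rest of the table in length and level. Their median exon length was 6090 bases and their median GC content 52.5%, against 4400 bases and 48.9% for the 13409 genes with a mean of at least 10. Their median value was 575 normalized reads, against 160. Of the 40, 15 share exon bases with another gene, and 4 share over 10% of them, namely Timp3, Fbn1 (20.1%, with Gm9913), Spp1 (18.8%, with Gm42793) and Loxl3 (11.6%, with Htra2).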

How the data were processed

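The series was made of RNA-seq of neonatal mouse CMs, and the submitters' processing notes name FastQC 0.11.8, Trimmomatic 0.39, STAR 2.7.10a, Picard 2.27.1, featureCounts 2.0.3, DESeq2 1.30.1 and mm10. The deposited values, called a score here, are reads per gene after the authors had scaled each library by its size factor and rounded to whole numbers, so they are no raw counts, and count models were not used on them as deposited. Every gene in the table reached 2 or more in its highest library. A strand setting of the counting is not given in the sources used here.

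Groups were taken from the treatment labels. αKG was compared with DMSO by limma 3.58.1 (R 4.3.3) on log2(value + 1), with a trend of the variance, treatment alone as covariate, Benjamini-Hochberg adjustment over 20066 genes, two-sided, at an adjusted p threshold of 0.05. A fold change is thus on the log2(value + 1) scale, which understates that of low genes. The value of 1 read was read from the steps of the values (0.9259 to 1.1188) and gave the estimated totals. On simulated data for this depth estimate, 18 of 20 factors were recovered within 0.1%. On simulated data for αKG against DMSO over 20066 genes, limma called 86 of 112 genes changed 2-fold and 88 of 88 changed 4-fold. The simulation used a dispersion of 0.01, changed only genes above a minimum mean, and gave the libraries of a group the same expected profile. It held no library set apart like αKG replicate 3, so these rates do not carry over to the libraries here.

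Exon lengths and GC content came from GENCODE M21 (GRCm38), in which 99% of the genes had the deposited position, and promoters from RefSeq. Where a symbol stood for several genes (9 symbols), the most abundant of them was used. The 40 genes, the companion lists and the marker lists were chosen with earlier results of these data known. Values in every library were given for genes past the threshold, for those without overlap and a log2 fold change of at least 0.5 in size, and for the most abundant gene per kb in each role group. Other matrix genes were named if past the threshold, 4 a list by smallest p and any further one after its values were seen. A result of 1 of these lists is not reported here. The alternatives were other pseudocounts, a filter on low values, other scalings, no variance trend, a replicate block, a correction for GC content and length, averaging DMSO replicates 2 and 3, leaving out each library, and, chosen after seeing the data, limma-voom on estimated reads.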

Additional observations from a re-analysis of the deposited data

How the results depend on the processing

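The median log2 fold change of the 40 genes stayed within 0.36 to 0.70 under the 17 alternatives and 0 of the 40 were called lower in any of them, but the calls depended on the setting. Of 759 genes called, 6 were among the 40 and 13 in the 5 other matrix lists. With a pseudocount of 0.1 these were 346, 3 and 5, without a variance trend 27, 0 and 0 (11 of the 40 at an unadjusted p under 0.05, beside 20.7% of the table), with DMSO replicates 2 and 3 averaged 19, 0 and 1 (16 of the 40 unadjusted, beside 17.5%), and with limma-voom, chosen after seeing the data, 338, 2 and 5. With the correction for GC content and length 1392 genes were called, 8 of them among the 40, sharing 5 with the 6. At an unadjusted p under 0.05 stood 5648 genes and 25 of the 40. Leaving out 1 library at a time gave 0 to 7466 genes, 0 to 36 of the 40 and 0 to 69 of the other lists. The highest values came without αKG replicate 3, which also left 39 instead of 16 of the 40 without overlap (range 16 to 39), beside 57.8% instead of 28.3% of the table. Overlap was not recounted for settings that change the fit alone. The causes of these changes were not tested. Fits that leave out or average libraries also rest on fewer samples, and the part of this was not tested either.

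The correlations of same-numbered deviations from the group means were -0.0744, 0.136 and 0.00192, and not every library correlated best with its own number. This cannot settle whether libraries were paired. Each group has only 3 deviations that sum to 0, and αKG replicate 3 stands apart. With the replicate block, 46 genes, 1 of the 40 and 1 of the other lists were called, and with the block and the GC and length correction 2059, 13 and 24.

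Direction turned in 4 of the 40 genes, none of them called with all libraries. The log2 fold change of Postn was -0.24 under the GC and length correction with and without the block, and -0.03 to 0.41 leaving out 1 library. That of Spp1 was -0.30 with quantile normalization, -0.21 under both corrections and -0.05 to 0.34 leaving out 1 library. That of Lum was -0.28 under both corrections, and that of Timp1 was -0.05 with quantile normalization and -0.05 to 0.33 leaving out 1 library. At the estimated depth, Spp1, Mfap4 and Mfap5 rest on too few reads for a difference to be read.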

Other observations

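Other ratios within a library, also formed per kb of exon after the values were seen and without a test, set related matrix genes against each other. Thbs2 divided by Thbs1 was 0.132, 0.121 and 0.119 in the DMSO libraries and 0.212, 0.201 and 0.186 in the αKG libraries, without overlap. The summed inhibitors Timp1, Timp2 and Timp3 divided by the metalloproteinases Mmp2 and Mmp14 came to 2.29, 2.23 and 2.25 with DMSO and to 2.04, 2.10 and 1.97 with αKG, lower in every αKG library. In both ratios αKG replicate 3 stood with the other αKG libraries. The ratio of Fbn2 to Fbn1 overlapped, at 1.39, 1.44 and 1.29 with DMSO and 1.11, 1.00 and 1.63 with αKG. Nidogens to Lamc1 overlapped as well, at 0.822, 0.829 and 0.769 with DMSO and 1.2, 1.17 and 0.732 with αKG, and so did lysyl oxidases to Eln, at 1.80, 1.89 and 1.97 with DMSO and 2.7, 3 and 1.85 with αKG.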
